A study of Mus musculus with 6 samples.

Results

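Complement is the cascade of blood proteins that tags particles and cells for removal, and 9 of its components and regulators were followed here in mouse kidney: C3, C4b, C2, Cfb, Cfi, C1ra, Cd55, Serping1 and Cfp. The genes were given by name, and every non-control probe carrying one of these names on the array was taken, which gave 16 probes for the 9 genes among 56605 non-control probes. Each of the 9 had at least 1 probe in the comparison, which tested 56097 probes of 37028 genes. The samples were left kidneys of male mice aged 8 weeks that had been fasted for 20 h, 1 mouse to a one-colour array, and all 6 arrays sat on 1 slide. The WT group held 3 C57BL/6J mice (WT 2, WT 3 and WT 4) and the Selenbp1-KO group 3 mice of the same labelled strain lacking selenium-binding protein 1 (KO 1, KO 2 and KO 3). According to the methods the C57BL/6J mice came from a supplier, and they are not described as littermates of the Selenbp1-KO mice. Because both genotypes were fasted, no comparison with fed kidneys enters the values, and how the deletion was made is not given in the sources used here. A level below is the log2 of a probe's signal over the 75th percentile of its array, a difference is the mean level of Selenbp1-KO minus that of WT, and a probe passed the test at an unadjusted limma p under 0.05, the threshold of the study's methods.

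The genotype labels were checked on Selenbp1 itself (NM_009150). Its probe at chr3:94748621-94748680 read 7.07, 7.02 and 7.02 on the WT arrays and 4.13, 3.98 and 4.10 on the Selenbp1-KO arrays, a difference of -2.96 (SE 0.0976, adjusted p = 0.0021). Every Selenbp1-KO array lay far below every WT array, although whether the probe lies inside the deleted part is not given. The probe of its close paralogue Selenbp2 differed by -3.22 (SE 0.101, adjusted p = 0.0021), and whether either probe reads both transcripts was not tested. Between 51.8% and 55.5% of the spots on an array stood well above background and none was saturated, and the 75th percentile of the signal ran from 477 to 751. As to the tissue label, all 11 kidney markers measured were well above background. None of them passed the test, which compares the genotypes and does not check the tissue.

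Complement can be started along several routes. In the classical route C1q, carrying the proteases C1r and C1s, binds antibody and cleaves C4 and C2, in the lectin route mannose-binding lectin and its proteases do the same, and in the alternative route factor B and factor D build a convertase that properdin holds together. All routes meet in the cleavage of C3, which coats surfaces and leads on to the membrane attack complex, and host cells are spared by inhibitors such as C1 inhibitor, factor I and CD55. Most circulating complement is made by the liver, but tubular cells, fibroblasts and macrophages of the kidney make several components as well, and complement takes part in glomerular and tubulointerstitial disease.

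Of the 9 members, 5 rose in Selenbp1-KO kidneys, namely C3, C1ra, Cd55, Serping1 and Cfp, by 1.23- to 1.48-fold. Cfi, which encodes the protease that destroys activated C3 and C4, fell to 0.761 of its WT signal. C4b, C2 and Cfb did not pass the test. By count 55.6% of the members were called higher, where 6.87% of all 37028 genes were called higher and 1.13% lower. The members were chosen with earlier results of these data known, so these shares are no test of the list. The share of all genes moved with the processing, for 9272 genes were called higher with median scaling and 11271 without WT 4, with 4 members called higher in both cases. The scanner software marks spots that stand well above background, and a gene is called well measured here where the 3 arrays of either genotype all carried that mark. All 9 members and 19265 genes in all were well measured, and of these genes 4.52% were called higher. The median difference of the members was 0.35, that of all genes 0.13 and that of the well-measured genes 0.02. No member had an adjusted p under 0.05. The lowest was 0.279, and 0.0054% of all genes, 2 of them, had an adjusted p under 0.05 in either direction. Without WT 4 that number was 8418, none of them a member.

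**Figure D1:**
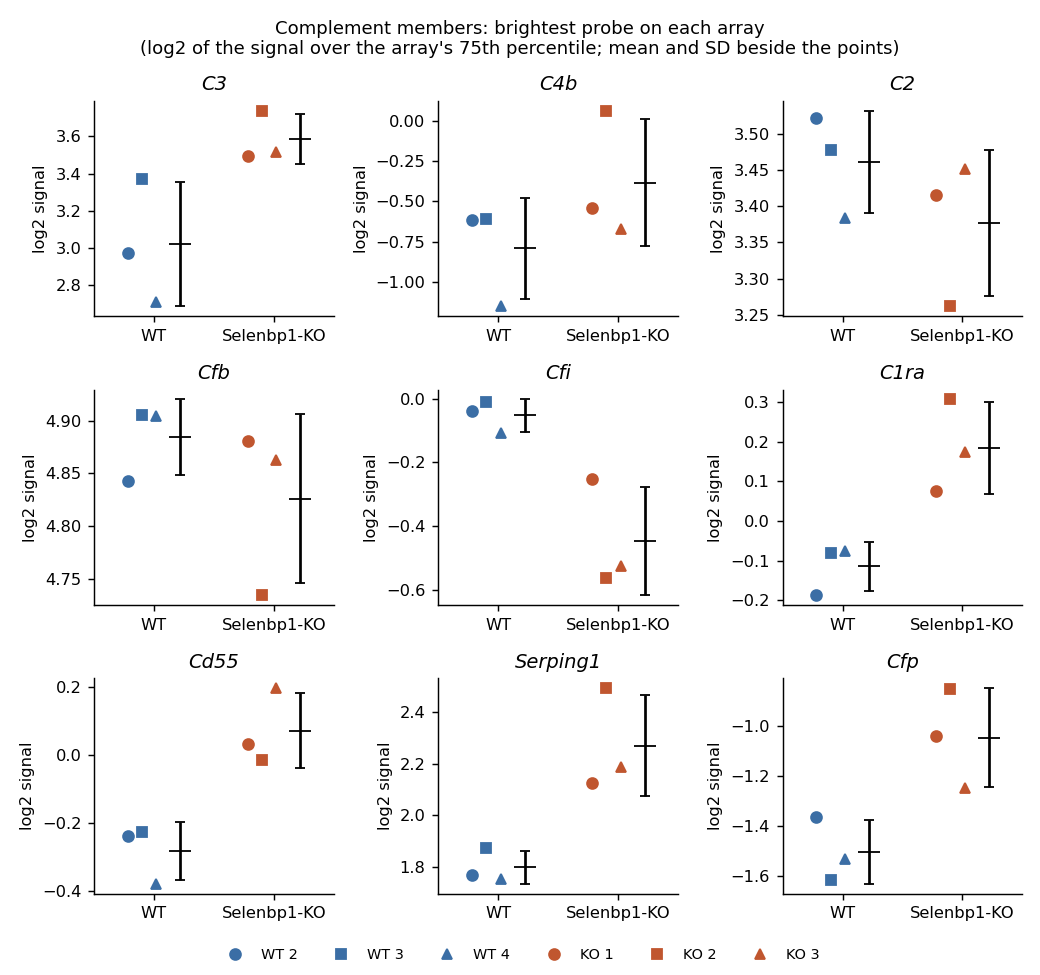
Level of the brightest probe of each of the 9 members on every array (vertical axes, log2 of the signal over the array's 75th percentile, with a scale of its own in each panel), with the 3 WT arrays in blue and the 3 Selenbp1-KO arrays in orange, and a bar for the mean and SD of each genotype. All Selenbp1-KO points lie above all WT points for C3, C1ra, Cd55, Serping1 and Cfp and below them for Cfi, while the points overlap for C4b, C2 and Cfb.

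The sequences before the transcription start are shown for the raised members that RefSeq's promoter table held, so that the letters common regulators recognise can be looked for. A promoter was matched for 4 of the 9 members, C3, C1ra, Cd55 and Cfp, all of which rose, and C2, C4b, Cfb, Cfi and Serping1 are named without one. The 250 bases that end just before the start site are given 5′ to 3′ on the gene's own strand, from RefSeq on build GRCm38.p6. They are chr17:57228137-57228386 on the minus strand for C3, chr6:124512371-124512620 on the plus strand for C1ra, chr1:130462745-130462994 on the minus strand for Cd55 and chrX:20931556-20931805 on the minus strand for Cfp. Capitals mark the only match found to any motif searched.
C3: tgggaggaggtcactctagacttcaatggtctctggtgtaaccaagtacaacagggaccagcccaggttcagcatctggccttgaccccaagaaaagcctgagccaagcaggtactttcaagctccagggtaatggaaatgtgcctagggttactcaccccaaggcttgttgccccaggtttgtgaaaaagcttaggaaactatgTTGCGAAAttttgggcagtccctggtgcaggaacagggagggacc
C1ra: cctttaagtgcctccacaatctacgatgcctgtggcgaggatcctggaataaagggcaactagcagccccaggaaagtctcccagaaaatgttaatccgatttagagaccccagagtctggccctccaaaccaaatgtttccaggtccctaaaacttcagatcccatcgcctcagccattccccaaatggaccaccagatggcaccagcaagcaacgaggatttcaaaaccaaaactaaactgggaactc
Cd55: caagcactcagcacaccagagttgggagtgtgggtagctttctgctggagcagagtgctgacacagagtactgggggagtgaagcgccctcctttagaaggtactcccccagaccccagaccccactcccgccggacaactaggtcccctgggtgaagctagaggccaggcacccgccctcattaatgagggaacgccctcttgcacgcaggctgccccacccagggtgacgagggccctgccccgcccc
Cfp: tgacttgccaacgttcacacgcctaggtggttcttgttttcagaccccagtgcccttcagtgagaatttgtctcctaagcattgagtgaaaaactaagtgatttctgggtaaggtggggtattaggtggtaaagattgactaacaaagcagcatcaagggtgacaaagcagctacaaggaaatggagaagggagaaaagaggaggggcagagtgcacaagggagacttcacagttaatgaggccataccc
The letters in capitals, TTGCGAAA, lie at bases -45 to -38 from the start of C3 and match, read on the opposite strand, the pattern TTNNGCAA of C/EBP factors. That pattern occurred on either strand in 9.56% of 32851 promoters cut to the same length. No match in these 4 windows was found to the STAT pattern TTCNNNGAA (in 7.02% of all promoters), the interferon-stimulated response element letters GAAANNGAA (7.13%), the NF-kB letters GGGANNTTC (3.23%) or the TATA box TATAAA (12.4%). A match describes letters and not binding, and binding was not measured here.

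C3 is the central component, whose cleavage all routes share. Its brighter probe (NM_009778, chr17:57343416-57343475 of mm9) read 2.98, 3.37 and 2.71 on WT 2, WT 3 and WT 4 and 3.50, 3.74 and 3.52 on KO 1, KO 2 and KO 3. WT 3 came nearest to the Selenbp1-KO arrays, and the genotypes did not overlap. The difference was 0.56 (SE 0.191, 95% confidence interval 0.10 to 1.03), or 1.48-fold, with an unadjusted limma p of 0.0252 and an adjusted p of 0.279. A second probe of C3, at chr17:57343678-57343737, gave almost the same difference, 0.54 (SE 0.196), again without overlap. The test was not passed on leaving out WT 2, WT 4 or KO 2. The difference was then 0.54 (SE 0.235), 0.41 (SE 0.166) and 0.49 (SE 0.22). Without WT 2 it hardly changed, but its SE rose from 0.191. In a whole kidney, more cells that make a transcript and more transcript per cell cannot be told apart, and this applies to all values here.

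C1ra encodes C1r, the protease that activates C1s within the first complex of the classical route. Its single probe (NM_023143, chr6:124473052-124473111) read -0.19, -0.08 and -0.08 on the WT arrays and 0.08, 0.31 and 0.17 on the Selenbp1-KO arrays. The genotypes did not overlap, KO 1 lying nearest to the WT readings. The difference of 0.30 (SE 0.109, 95% confidence interval 0.03 to 0.56), or 1.23-fold, was the smallest among the raised members. It was not called without WT 2 (0.26), WT 3 (0.32), KO 2 (0.24) or KO 3 (0.31).

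C4b encodes C4, which C1s cleaves and which joins with C2 in the convertase. Its brighter probe (NM_009780, chr17:34865367-34865426) read -0.62, -0.61 and -1.15 on the WT arrays and -0.54, 0.06 and -0.67 on the Selenbp1-KO arrays. WT 4 stood low and KO 2 high, while the other 4 arrays lay close together and overlapped. The difference of 0.41 (SE 0.251, 95% confidence interval -0.21 to 1.02) did not pass the test, and it was 0.18 without KO 2 and 0.23 without WT 4. The dimmer probe, at chr17:34866361-34866420, read -3.32, -3.16 and -4.29 in WT and -2.66, -2.45 and -3.02 in Selenbp1-KO kidneys. These groups did not overlap, and the difference of 0.88 (SE 0.332, adjusted p = 0.279) passed at the unadjusted level. The file assigns this second probe to transcripts of both C4a and C4b, near-identical neighbours, so that its signal cannot be credited to C4b alone.

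C2 supplies the protease of the classical and lectin convertase, and Cfb, factor B, supplies that of the alternative convertase. The 2 genes are neighbours whose probes lie 5716 bases apart on chromosome 17, and C4b lies 0.128 Mb from Cfb in the same stretch. C2 (NM_013484, chr17:34999575-34999634) read 3.52, 3.48 and 3.38 in WT and 3.42, 3.26 and 3.45 in Selenbp1-KO kidneys. The readings overlapped, with a difference of -0.08 whose 95% confidence interval ran from -0.34 to 0.18. Cfb (NM_008198, chr17:34993502-34993858, a 60-base probe across a stretch of 357 bases) read 4.84, 4.91 and 4.90 in WT and 4.88, 4.73 and 4.86 in Selenbp1-KO kidneys. Only KO 2 stood apart, below the others. The difference was -0.06 (95% confidence interval -0.30 to 0.18), and a second Cfb probe gave -0.08 (95% confidence interval -0.33 to 0.17). For both genes the upper limit of the interval, 0.18, was below the estimate of each of the 5 raised members. The intervals still overlapped, since the lower limits of those 5 were 0.03 (C1ra) to 0.15 (Serping1). The genes were not tested against each other. Under quantile normalization Cfb passed the test in the lower direction, at -0.13, and in the authors' deposited table at -0.11.

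Cfp encodes properdin, the one plasma protein of this group that stabilises a convertase instead of dismantling it. Its brighter probe (NM_008823, chrX:20502742-20502801) read -1.36, -1.61 and -1.53 in WT and -1.04, -0.86 and -1.25 in Selenbp1-KO kidneys. The genotypes did not overlap, with KO 3 and WT 2 closest to each other. The difference was 0.45 (SE 0.142, 95% confidence interval 0.11 to 0.80), or 1.37-fold. A dimmer probe at chrX:20504475-20504676, well above background on 2 WT and all 3 Selenbp1-KO arrays, gave 0.70 (SE 0.162), or 1.63-fold, and no overlap. The brighter probe was not called without WT 3 (0.40), KO 1 (0.45) or KO 2 (0.36).

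Serping1 encodes C1 inhibitor, which blocks C1r, C1s and the lectin proteases as well as enzymes of the kinin pathway. Its single probe (NM_009776, chr2:84605663-84605722) read 1.77, 1.87 and 1.76 on the WT arrays and 2.13, 2.49 and 2.19 on the Selenbp1-KO arrays. The WT arrays lay close together, and all Selenbp1-KO arrays were above them, KO 2 by the most. The difference of 0.47 (SE 0.132, 95% confidence interval 0.15 to 0.79) was 1.38-fold. Serping1 was called under all 17 alternative treatments of the data that were run, at 0.36 to 0.54, including the omission of each array in turn, and it was the only member for which this held.

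Cd55 encodes decay-accelerating factor, a membrane anchored protein that takes convertases apart on the cell's own surface. The brightest of its 4 probes (NM_010016, chr1:132336925-132344911, 60 bases across a stretch of 7987) read -0.24, -0.23 and -0.38 in WT and 0.03, -0.01 and 0.20 in Selenbp1-KO kidneys. No Selenbp1-KO array fell into the WT range, and KO 3 was the highest. The difference was 0.35 (SE 0.111, 95% confidence interval 0.08 to 0.62), or 1.28-fold. None of the 3 other probes passed the test. A probe at chr1:132353415-132353474 gave 0.34 (SE 0.141) and one at chr1:132335716-132335775 gave 0.18 (SE 0.108), both without overlap between the genotypes. The dimmest, at chr1:132344000-132344059, was well above background on 2 WT arrays and 1 Selenbp1-KO array and overlapped (0.47, SE 0.288). Without KO 3 the difference of the brightest probe was 0.29 and no longer called.

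Cfi encodes factor I, which cuts C3b and C4b into inactive pieces and was the one member that fell. Its single probe (NM_007686, chr3:129578111-129578170) read -0.04, -0.01 and -0.11 on the WT arrays and -0.25, -0.56 and -0.52 on the Selenbp1-KO arrays. KO 1 was nearest to the WT arrays, and the groups did not overlap. The difference was -0.39 (SE 0.122, 95% confidence interval -0.69 to -0.10), so that the WT signal was 1.31-fold that of Selenbp1-KO. The gene lies on the same chromosome as the deleted gene, 34.8 Mb from the Selenbp1 probe, and sequence differences around the deletion were not examined. It was not called without WT 2 (-0.39), WT 3 (-0.37), KO 2 (-0.34) or KO 3 (-0.35).

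**Figure D2:**
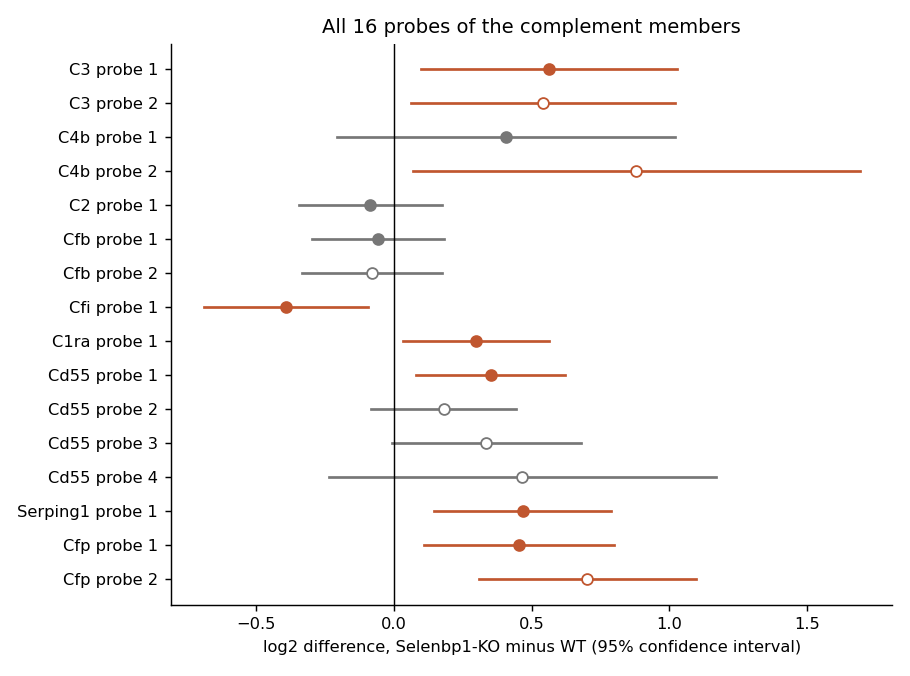
Difference between genotypes for all 16 probes of the 9 members (horizontal axis, log2, Selenbp1-KO minus WT, with 95% confidence intervals), where filled circles are the brightest probe of a gene and orange marks an unadjusted limma p under 0.05. Probes of C3, Cfb and Cfp lie on the same side of 0 within each gene, as do those of C4b and Cd55 with wider spread, and the Cfi probe is the only orange one left of 0.

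Over the 16 probes, 8 were called higher, 1 lower and 7 were not called. Of all 56097 probes tested, 4479 were called in either direction. Several of the 16 read the same gene, so that they are not separate results. The Selenbp1-KO readings lay wholly above the WT readings in 10 probes and wholly below them in 1, that of Cfi. Such separation was not counted over all probes. Counted by gene, 5 members had all Selenbp1-KO arrays above all WT arrays, where 12.5% of the well-measured genes did. With 3 arrays a side, an exact permutation test of a single gene could not give a two-sided p below 0.1.

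The arrays did not contribute evenly to the members' pattern. KO 2 gave the highest level of 4 of the 5 raised members and the lowest of C2, Cfb and Cfi, and WT 4 gave the lowest level of 3 of the 5. WT 2 and WT 3 lay in the first row of the slide, whereas WT 4 and the 3 Selenbp1-KO arrays lay in the second, so that a comparison within a row rests on WT 4 alone. With slide row as a block, 903 of all 37028 genes were called higher and 1350 lower, in place of 2544 and 420. Of the members, 3 were called in place of 6. They were C3 (0.87), Cd55 (0.45) and Serping1 (0.51), whereas C1ra (0.26), Cfp (0.48) and Cfi (-0.34) kept their sign and were not called. C4b gave 0.77 there and was not called. How far slide position enters these values was not tested beyond that.

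The median difference of the members was 0.35 after quantile normalization and 0.34 with median scaling, beside 0.35 as reported. That of all genes was 0.00 and 0.11, beside 0.13 as reported. Of all genes, 2544 were called higher and 420 lower, but after quantile normalization, which sets the median difference of all genes to 0.00, the calls were 1941 and 1428, with 5.24% of genes called higher. The same 5 members were called higher there, at 0.54 for C3, 0.30 for C1ra, 0.35 for Cd55, 0.46 for Serping1 and 0.45 for Cfp. Cfi was called lower at -0.39, and so was Cfb at -0.13, which was not called as reported. Each of the 9 members kept its sign under all 17 alternatives.

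**Figure D3:**
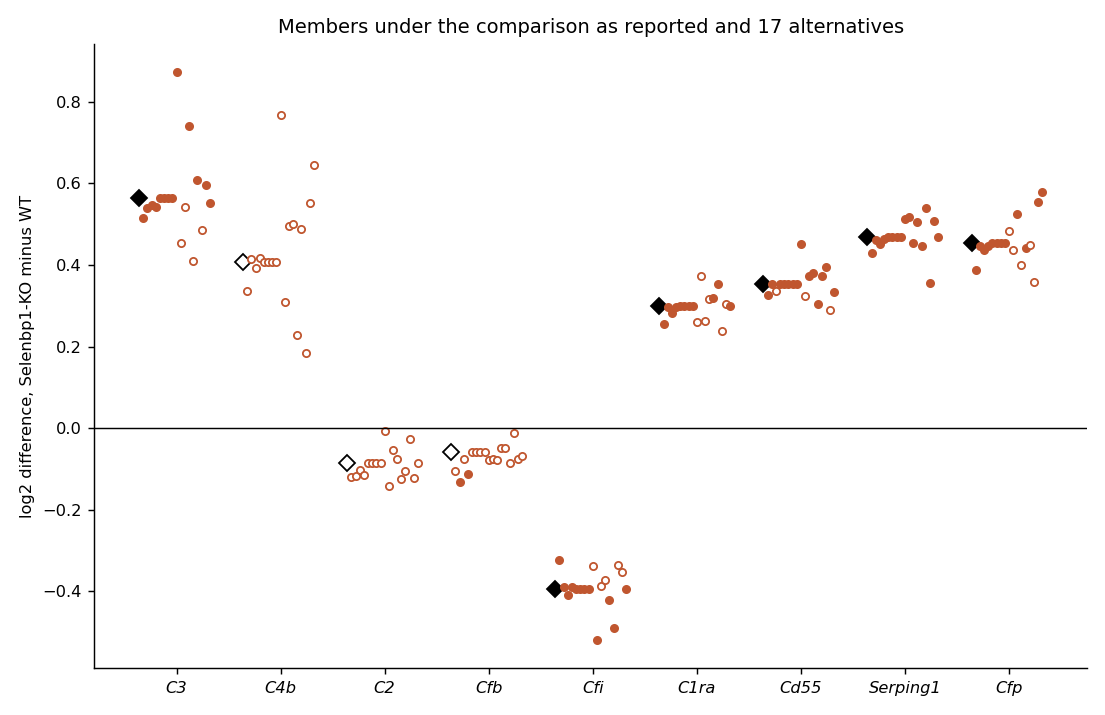
Difference between genotypes of each member's brightest probe (vertical axis, log2, Selenbp1-KO minus WT) as reported (black diamonds) and under 17 alternative treatments of the data (orange circles, the same order from left to right for each gene), filled where the unadjusted limma p was under 0.05. No member crosses 0, Serping1 is filled throughout, and C4b and C2 are open throughout.

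The rest of the pathway was read from a list of 45 other complement genes, of which 44 were tested and 31 were well measured. Of the 44, 10 were called higher (22.7%), where 6.87% of all genes were, none lower and 34 were not called. Their median difference was 0.29 beside 0.13 for all genes. This list too was chosen with earlier results of these data known. At an adjusted p under 0.05 limma called none of them. Without WT 4 it called 6 of them, and 8418 of all 37028 genes. By role, 5 of 7 were called at the start of the classical route, 2 of 8 in the lectin route, 1 of 2 in the alternative route, 1 of 7 in the terminal pathway, 1 of 9 receptors and 0 of 11 further regulators. These counts were not tested against each other.

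The 3 genes of C1q, the molecule that C1r and C1s ride on, rose together. C1qa read -1.14, -0.89 and -0.84 in WT and -0.19, -0.44 and -0.52 in Selenbp1-KO kidneys, and it rose by 0.58 (SE 0.143). C1qc rose by 0.60 (SE 0.14) and C1qb by 0.51 (SE 0.146), and in none of the 3 did the genotypes overlap. Among the Selenbp1-KO arrays, KO 1 was the highest for all 3, unlike the raised members, of which 4 were highest on KO 2. C1s1 and C1s2, the genes of the C1s protease, each rose by 0.42 (SE 0.134 and 0.122) without overlap, with KO 2 the highest, although C1s1 was not called without WT 2 (0.42) or KO 2 (0.33). C1rb, the second C1r gene, differed by 0.25 and was not called. With slide row as a block C1qa gave 0.46, C1qb 0.44 and C1qc 0.40, and these were not called. C4a was well above background on 2 WT arrays and no Selenbp1-KO array.

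In the lectin route, Mbl1, a mannose-binding lectin gene, rose by 0.59 (SE 0.229) although its genotypes overlapped, and this call was lost on leaving out any array except KO 2. Fcnb was called higher, but it was not well above background on any array. Masp1, a protease gene of this route, differed by -0.18 (95% confidence interval -0.53 to 0.17). In the alternative route Cfhr2 read 1.29, 1.23 and 1.34 in WT and 1.49, 1.69 and 1.60 in Selenbp1-KO kidneys. Its difference was 0.31 (SE 0.104) and the genotypes did not overlap, but it was lost on leaving out WT 2, WT 3, KO 2 or KO 3 (0.26 to 0.31). Cfd, the factor D gene also known as adipsin for its high output by fat, read 4.27, 5.21 and 3.21 in WT and 5.21, 6.53 and 4.09 in Selenbp1-KO kidneys. The genotypes overlapped widely, and the difference of 1.05 (SE 0.749) was not called.

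Among the terminal components C9 passed the test in the higher direction, but 1 Selenbp1-KO array and no WT array stood well above background, so no fold is given. Its genotypes overlapped, and it was not called after quantile normalization, in the authors' deposited table, with slide row as a block, or without WT 3, WT 4, KO 2 or KO 3. Hc, which encodes C5, was not well above background on any array. C5ar2, a receptor for the C5a fragment, read -4.60, -4.62 and -4.06 in WT and -3.53, -3.50 and -3.91 in Selenbp1-KO kidneys. It rose by 0.78 (SE 0.204) without overlap, whereas C3ar1 and C5ar1, the receptor genes for C3a and C5a, were below that limit on every array. C5ar2 gave 0.41 with slide row as a block and was not called.

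None of the further regulators passed the test. The membrane inhibitors Cr1l and Cd59a differed by 0.03 (95% confidence interval -0.19 to 0.26) and 0.07 (-0.16 to 0.31). Clu, clusterin, differed by 0.15 (-0.12 to 0.42) and Vtn, vitronectin, by 0.40 (-1.34 to 2.14), both inhibitors of the membrane attack complex. Cd46 was well above background on 1 WT array and no Selenbp1-KO array.

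**Figure D4:**
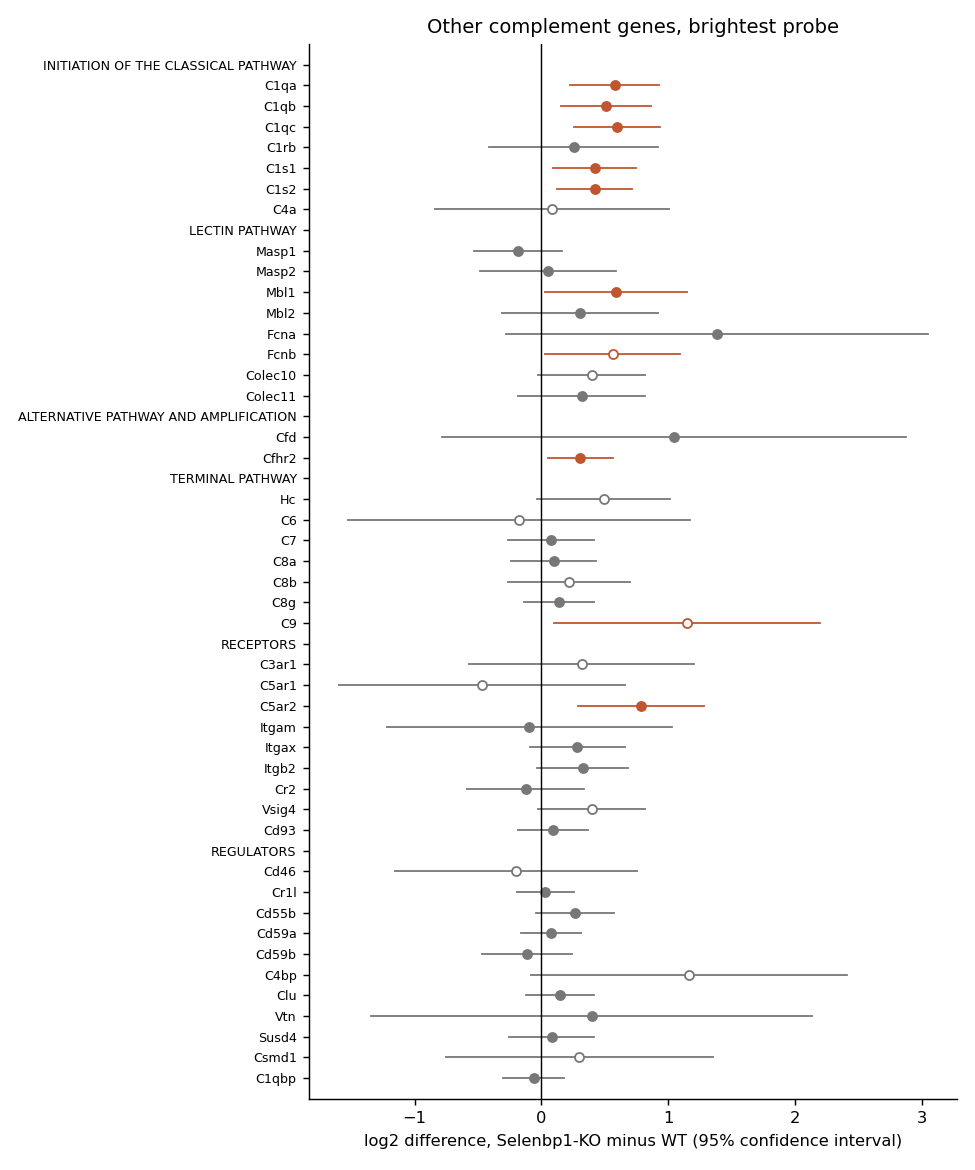
Difference between genotypes for 44 other complement genes by role (horizontal axis, log2, Selenbp1-KO minus WT, brightest probe, with 95% confidence intervals), where orange marks an unadjusted limma p under 0.05 and filled circles a well measured gene. The orange genes are all right of 0 and 5 of the 10 belong to the initiation of the classical pathway.

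Markers of cells that make complement were counted in the same way, where 6.87% of all genes were called higher. In the comparison as reported, no gene of the marker and response lists had an adjusted p under 0.05. Of 12 macrophage markers 5 were called higher and none lower, among them Cd68 (0.36), with a median of 0.36, and their summed linear signal over the 75th percentile was 22.7 to 26.1 in WT and 29.0 to 32.7 in Selenbp1-KO kidneys. Adgre1 (0.36) and Csf1r (0.17), which define macrophages, did not pass, and Fcgr1 never stood well above background. Of 12 markers of connective tissue fibroblasts 7 were called higher and none lower, with a median of 0.66, and the summed signal was 26.5 to 31.9 in WT and 39.9 to 51.5 in Selenbp1-KO kidneys. Dcn gave the largest part of each fibroblast sum. Dpt (1.08) and Col1a1 (0.44) were among those called, while Pdgfra (0.07) was not. In both lists KO 2 gave the highest sum, and it gave the highest level of 4 of the 5 raised members. Of the lists that follow, KO 2 was also highest for fat, mesothelium, lymphocytes and the interferon response. The sums for hepatocytes, kidney, neutrophils and the acute phase were highest on other arrays. The part of either list in the members' differences was not tested.

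Fat markers ranged widely within both genotypes. None of 8 was called, with a median of 0.77, and the sums were 20.0 to 41.9 in WT and 25.4 to 95.2 in Selenbp1-KO kidneys. Fabp4 gave most of these sums, and Adipoq differed by 1.19 and Plin1 by 0.74. Hepatocyte markers, the signature of the main source of plasma complement, were called in 0 of 8, with sums of 100.1 to 108.3 and 95.3 to 109, and Cps1 was not well above background on any array. Serpina1a, at 6.11 to 6.34 on the 6 arrays, gave most of these sums, which hide an uneven group. Alb read -0.80 on KO 1 against 1.64 and 2.16 on KO 2 and KO 3, and Ahsg -6.87 against 0.17 and 0.83. The sums of the 11 kidney markers were 550 to 595 and 571 to 599, with a median difference of -0.01. Of the remaining lists, 1 of 7 mesothelial markers, 2 of 9 lymphocyte markers and 0 of 7 neutrophil markers were called higher. The mesothelial sums were 10.3 to 10.9 and 10.1 to 15.5, with Lrrn4, the marker called, below the limit on every array. The lymphocyte sums were 2.27 to 2.56 and 2.50 to 2.84, with Cd79a and Cd8a below it, and Cd4 gave most of them. The neutrophil sums were 25.7 to 38.4 and 25.5 to 33.6, with Camp, Ltf and Ngp below it. Csf3r, at 4.64 to 5.25, gave almost all of the neutrophil sums, so that they follow 1 gene.

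**Figure D5:**
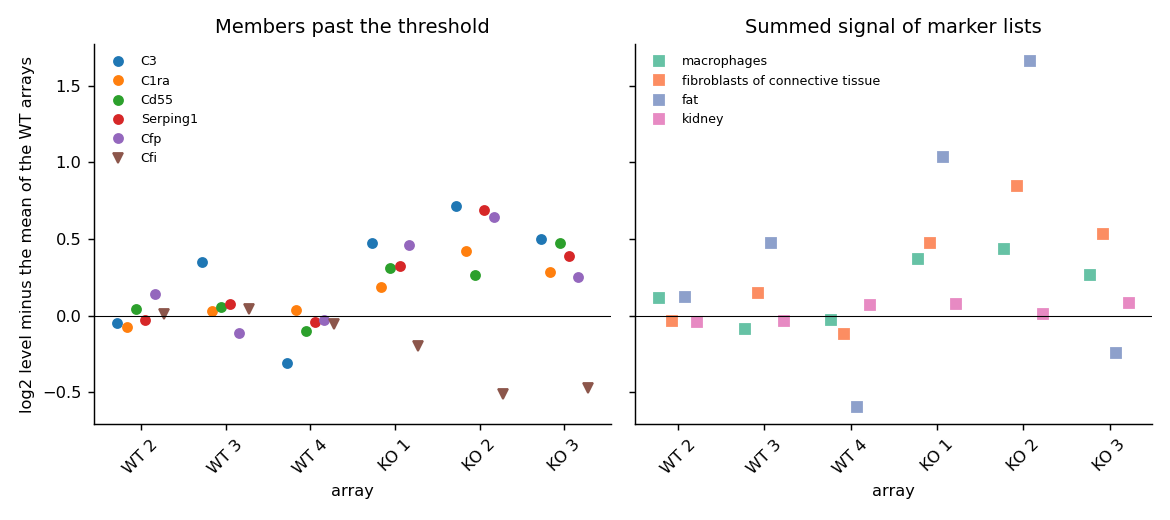
Left, the 6 members past the threshold on each array, as the log2 level of the brightest probe minus the mean of the WT arrays (triangles, Cfi). Right, the log2 of the summed signal of 4 marker lists on the same scale. KO 2 holds the highest points for C3, C1ra, Serping1 and Cfp and for the macrophage, fibroblast and fat lists, and the kidney list lies near 0 on all arrays.

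Interferon and acute phase signals, which are known to raise several complement genes, were followed by their own lists. Of 26 interferon response genes 5 were called higher (19.2%), where 6.87% of all genes were, and none lower. Their median was 0.15, with sums of 18.6 to 21.7 in WT and 20.6 to 23.3 in Selenbp1-KO kidneys. Mx1 never stood well above background. Of 23 acute phase and cytokine response genes 1 was called higher and 1 lower, with a median of 0.08 and sums of 38.1 to 58.3 and 46.8 to 54.8. The one higher was Orm1 (1.18), an acute phase plasma protein gene. The one lower was Saa2, a serum amyloid A gene, well above background on 2 WT arrays and no Selenbp1-KO array and at least 1.26-fold lower there, and Il6 was not well above background on any array. Whether either response has a part in the members' differences was not tested.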

How the data were processed

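Kidney RNA of 3 WT and 3 Selenbp1-KO mice was labelled with Cy3 and hybridised to 60-base Agilent probes, 62976 spots to an array. The deposited scanner files hold the authors' intensity values from Agilent Feature Extraction, background-subtracted and detrended within each array, together with a detection p-value for each spot, and no scaling between arrays had been applied. The probe coordinates of the files are on mm9. The authors' deposited table holds 1 intensity for each probe on a linear scale, and its 6 columns share their quartiles (4.39, 24.4 and 402), as quantile normalization gives. That table and the scanner values ranked the probes alike.

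Each processed signal was converted to log2 and reduced by the log2 of its array's 75th percentile, outlier spots were left out and the spots of a probe were averaged. Following the methods of the study, probes detected at p under 0.05 by 1 or more arrays were tested with limma 3.58.1 (R 4.3.3) by lmFit and eBayes, with genotype as the only term, and p-values were two-sided and adjusted by Benjamini-Hochberg over all probes tested. The code was run on simulated data with independent noise and a shift larger than any member's difference. That run does not speak to calls of the sizes reported here. The brightest probe on average stood for a gene, and well above background means the scanner software's own flag. Symbols were taken from RefSeq (GRCm38.p6) by accession for 32994 of 56605 probes, 1535 of which are named otherwise in the files, and from the files elsewhere. Named are all 9 members with all probes, Selenbp1, the other complement genes called, a set of further complement genes given whatever their values, and defining markers. Selenbp2, C1rb, Ahsg, Orm1, Saa2, the markers named as the largest part of a sum and the markers below background were added after their values were seen.

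A few complement genes are not reported here. The members and gene lists were chosen with earlier results of these data known. The number of arrays limits the precision, and nothing in the labels says that mice were pooled, so that the spread is taken as that between mice. Alternatives changed the background correction, scaling, filter, outlier spots, variance model, slide row, replicate number, arrays and the treatment of several probes.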

Additional observations from a re-analysis of the deposited data

How the results depend on the processing

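The members' median difference of 0.35 stayed between 0.24 (without KO 2) and 0.45 (slide row as a block) under the 17 alternatives, and no difference of a member or of another complement gene called changed sign. The number of members called, 6, was 5 to 7 under the other scalings, background corrections, filters and variance models, but 3 with slide row as a block. Leaving out 1 array gave 2 to 5 members called, with 2 without KO 2 and 3 without WT 2, WT 3 or KO 3. In place of 10 other complement genes, 7 were called with slide row as a block (6 higher and 1 lower), and 6 (without KO 2) to 14 (without WT 4) on leaving out 1 array. Over all genes the 2964 calls became 9756 with median scaling, 5213 with the trend and robust options of limma and 2253 with slide row as a block. On leaving out 1 array they became 1294 (without WT 2) to 11812 (without WT 4), with 1689 without WT 3 and 1803 without KO 2. With the trend and robust options the adjusted p of Serping1 was 0.00615, and it was the 1 member under 0.05 there, whereas its adjusted p was 0.279 as reported. Of all genes, 156 had an adjusted p under 0.05 with these options, beside 2 as reported. C1qc (0.00268) and C1qa (0.0118) were the other complement genes with an adjusted p under 0.05 under these options. The cause of these shifts was not tested.

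The replicate numbers are shared by the genotypes only for 2 and 3, and the labels do not say that a number marks a shared litter or day. The deviations of same-numbered arrays from their group means correlated at 0.164 and 0.211 over 26815 probes, but WT 3 with KO 1 correlated at 0.246 and WT 4 with KO 2 at 0.201. WT 4 and KO 1 share their number with no other array, so that a replicate block bases the difference on replicates 2 and 3 alone. With this block, 2 members, Serping1 and Cfi, were called, 14 other complement genes and 12286 of all genes. Of these calls 1 member and 11754 genes were higher. Differences near background cannot be sized, which concerns C9 and Fcnb among the genes called.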
